A study of Mus musculus with 6 samples.

Results

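The serine synthesis and one-carbon genes are 9 of the 26082 gene names in an RNA-Seq profile of sorted MLL-AF9 cells, a mouse model of acute myeloid leukemia: Phgdh, Psat1 and Psph, Shmt1 and Shmt2, Mthfd1, Mthfd2 and Mthfd1l, and Slc1a4. They were chosen from measured values, because earlier results of these libraries had shown this pathway at lower levels after DS-5272, so their change with treatment is given as a description and carries no test. All 9 had an entry in the table, and 8 of them averaged 1 FPKM or more across all 6 samples and so passed the filter on low values. FPKM is the number of sequenced fragments of a gene divided by transcript length and library size, so levels can be compared between genes.

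Cells build serine from a glycolysis intermediate by oxidation, transamination and dephosphorylation. Serine then passes a carbon unit to tetrahydrofolate and becomes glycine, and the folate-bound unit is carried through parallel sets of enzymes in the mitochondrion and the cytosol. The units feed the synthesis of purines, thymidylate and methionine, and dividing leukemia cells depend on this supply for DNA synthesis.

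DS-5272 is a drug taken by mouth that keeps p53 from binding MDM2, the ubiquitin ligase that holds p53 down. C57BL/6J mice bore a leukemia made from c-Kit+ bone marrow progenitors of wild-type mice that were transduced by retrovirus with MLL-AF9, a fusion oncogene of human acute leukemia. The cells had been passed serially through mice before they were injected into recipients that were not irradiated, so the 6 mice carried related leukemia cells rather than independent leukemias. The study compared 3 mice given vehicle with 3 mice given 80 mg/kg DS-5272 by mouth, and in both groups leukemia cells were sorted from the bone marrow 24 h after dosing. The labels number the libraries from 1 to 3 in each group without tying each to a mouse. Each library is read here as 1 mouse, and p-values measure the spread between these samples, which may be technical.

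Expression was tested in 11130 genes with limma. With DS-5272, 2697 genes (24.2%) were called higher and 2451 genes (22.0%) were called lower at a Benjamini-Hochberg adjusted p under 0.05. All 3 DS-5272 values lay below all 3 vehicle values in 29.7% of these genes. Without vehicle replicate 2 the calls fell to 1623 higher and 1389 lower, and without vehicle replicate 3 they were 1799 and 1492. Estimated depth was 34300000 to 43200000 fragments in the vehicle libraries and 23000000 to 32500000 in the DS-5272 libraries, lowest in DS-5272 replicate 3. Markers of maturing neutrophils summed to 417, 1850 and 2490 FPKM in vehicle replicates 1, 2 and 3 and to 4930, 12500 and 21000 FPKM in the DS-5272 replicates, and 8 of the 10 were called higher, or 10 with the replicate number as a block in the fit. Of these, Ly6g passed the filter only through the DS-5272 group. Erythroid markers summed to 2.53 to 4.70 FPKM with vehicle and to 147, 27.5 and 12.8 FPKM with DS-5272, and macrophage markers, at 64.5 to 118 FPKM with vehicle, to 451, 189 and 245 FPKM. Of the macrophage markers, 4 of 10 tested were called higher. Markers of NK and T cells stayed at 0.679 to 6.29 FPKM in sum, with 0 of 10 above the filter, and B cell markers at 3.52 to 5.36 FPKM. In sorted bulk cells, fewer cells of a type and less RNA per cell cannot be told apart.

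To show an annotated start of these genes, the 100 bases before a RefSeq start of 4 members are printed 5′ to 3′ on the strand of the gene (GRCm38.p6). Capitals mark CCAAT, or its reverse complement ATTGG, the motif of the factor NF-Y. Phgdh had the largest fall of the members, Psat1 the highest level, Mthfd2 the most CCAAT copies in these bases, and Shmt2 had none. The windows are chr3:98339970-98340069 for Phgdh, chr19:15925060-15925159 for Psat1, chr6:83317605-83317704 for Mthfd2 and chr10:127522445-127522544 for Shmt2, all on the minus strand. By the GENCODE positions given below, the windows of Psat1 and Mthfd2 lie inside the gene and that of Phgdh partly so. Which start these cells use was not tested. Psat1 has another RefSeq start, not printed, whose 100 bases (chr19:15924623-15924722) hold neither CCAAT nor ATTGG.
Phgdh: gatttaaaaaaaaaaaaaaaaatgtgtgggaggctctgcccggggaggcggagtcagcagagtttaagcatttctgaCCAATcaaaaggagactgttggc
Psat1: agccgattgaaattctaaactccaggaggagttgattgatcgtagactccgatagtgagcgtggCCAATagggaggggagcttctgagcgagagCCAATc
Mthfd2: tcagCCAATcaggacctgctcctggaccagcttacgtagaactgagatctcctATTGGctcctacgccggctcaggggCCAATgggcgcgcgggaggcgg
Shmt2: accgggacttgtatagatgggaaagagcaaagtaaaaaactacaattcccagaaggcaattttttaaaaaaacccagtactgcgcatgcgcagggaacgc

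Over windows of 300 bases, from 250 before to 50 after each RefSeq start, CCAAT on either strand was found in 7 of the 10 windows of the 9 members (Psat1 has a pair of starts) and in 37.4% of all 32851 windows. The 7 windows belong to Phgdh, Psat1, Psph, Shmt1, Mthfd1, Mthfd2 and Slc1a4, and in Phgdh the copies begin at -193 and -23 from the start. A composite element TGATGNAA, of the kind read by ATF4, was found in 1 member window, that of Slc1a4 at -4, against 3.97% of all windows. The E-box CACGTG was in 0 of the 10 windows against 7.15%, and TTTNNCGC, an E2F-type motif, was in those of Psph and Shmt2 against 5.17%. These matches describe letters in a window and say nothing of binding.

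The genes of serine synthesis held very different levels in vehicle-treated cells and kept different shares of them after DS-5272. Phgdh encodes phosphoglycerate dehydrogenase, which takes the glycolysis intermediate 3-phosphoglycerate out of glycolysis as the first step. It measured 14.4, 15.1 and 13.3 FPKM in the vehicle mice and 0.574, 1.26 and 0.0934 FPKM in the DS-5272 mice. The vehicle mice lay within a narrow band, while the treated mice were all far below it and differed from each other, with replicate 3 lowest. Mean levels were 14.3 ± 0.902 and 0.641 ± 0.584 FPKM (SD, n = 3), which is 22.2-fold, or 4.50% of the vehicle mean. On the log2(FPKM + 1) scale the difference was -3.28 with a standard error of 0.26, and with a pseudocount of 0.1 it was -4.68. By log2 fold change it stood 5 from the bottom of all 11130 genes. In vehicle-treated cells its level stood at percentile 50.8 of the tested genes. The treated values rest on few reads, with an estimated 35, 68 and 4 fragments against 977 to 1180 in the vehicle libraries, and Phgdh passed the filter only through the vehicle group. The gene lies at chr3:98313170-98339990 on the minus strand of GRCm38.

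Psat1, the aminotransferase of the next step, was the most abundant member at percentile 94.1 of the tested genes in vehicle-treated cells. It measured 131, 112 and 105 FPKM with vehicle and 42.6, 52.1 and 22.9 FPKM with DS-5272. The groups stood apart, and the treated mice kept 33.8% of the vehicle mean. The log2 difference was -1.61 with a standard error of 0.29. Psat1 lies at chr19:15904678-15947337 on the minus strand.

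Psph, the phosphatase that releases serine, measured 10.5, 12.8 and 11.3 FPKM with vehicle and 5.53, 5.80 and 4.64 FPKM with DS-5272. Its treated mice were close together, at 48.0%, 50.3% and 40.2% of the vehicle mean, and it kept the largest share of its level among the 8 members that passed the filter. The log2 difference was -0.99 with a standard error of 0.12, the smallest error of the 8. Exons of Psph (chr5:129765558-129787449) overlap those of Cct6a, a chaperonin subunit on the opposite strand. Since no source says that strand was used in counting, reads of the overlap cannot be assigned. Cct6a measured 148 ± 1.82 FPKM with vehicle and 85.0 ± 21.8 FPKM with DS-5272 (SD, n = 3), a log2 change of -0.83 (limma, adjusted p = 0.015).

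Levels within the serine synthesis branch were also compared as ratios. The ratio of Psat1 to Phgdh was 9.09, 7.45 and 7.88 in the vehicle mice and 74.2, 41.5 and 245 in the DS-5272 mice, with no overlap. The treated ratios divide by Phgdh values that rest on an estimated 35, 68 and 4 fragments, so their size is uncertain, above all in replicate 3. The ratio of Psat1 to Psph was 12.5, 8.79 and 9.27 with vehicle and 7.70, 8.98 and 4.94 with DS-5272, and here the groups overlapped.

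**Figure D1:**
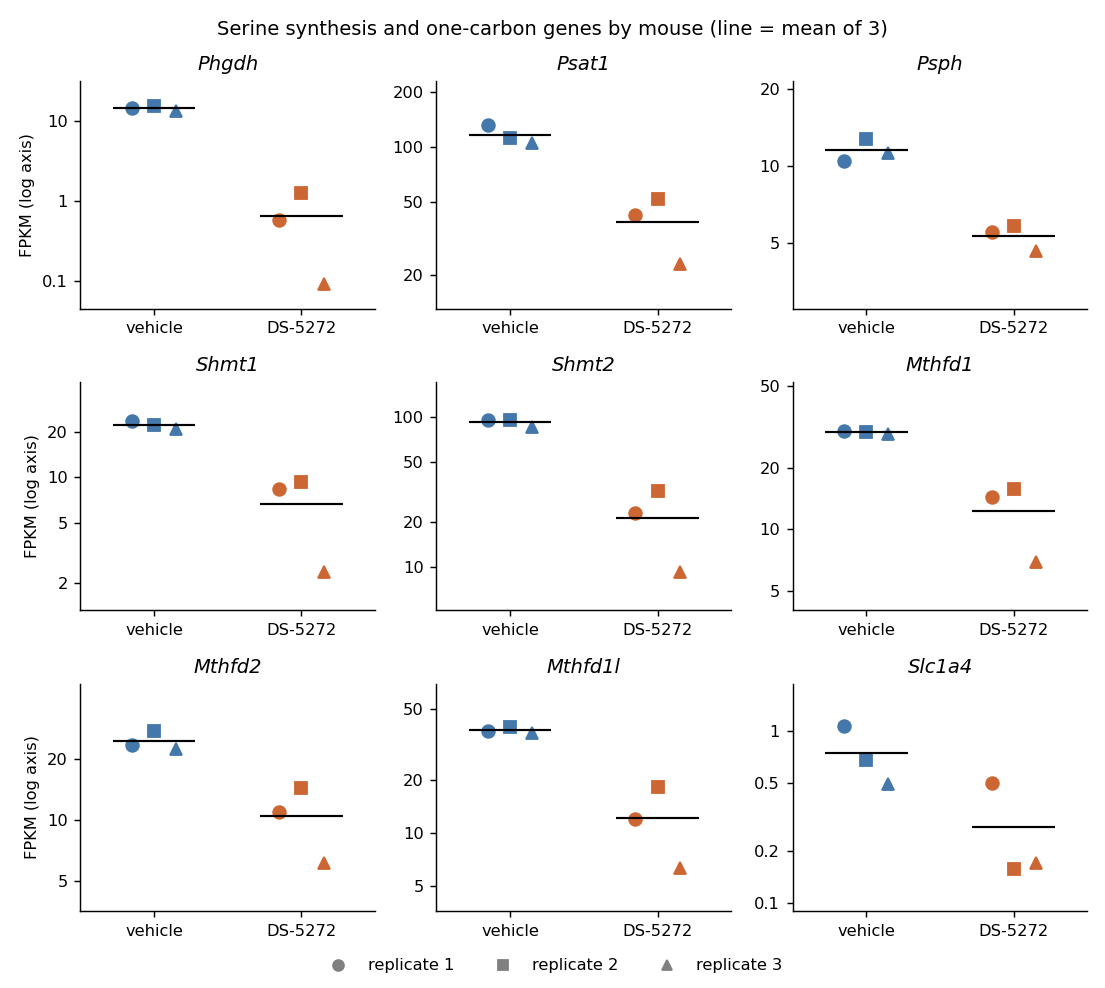
Level of each of the 9 genes in FPKM, on a log axis that differs between panels, in the 3 vehicle mice (blue) and the 3 DS-5272 mice (orange), where symbols give the replicate number and the line is the mean. All treated values of 8 genes lie below all their vehicle values, Slc1a4 overlaps, and Phgdh falls from 14.3 to 0.641 FPKM.

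The serine hydroxymethyltransferases move a carbon from serine to tetrahydrofolate. Shmt2, the mitochondrial form, measured 95.2, 95.2 and 86.1 FPKM with vehicle and 22.8, 32.0 and 9.24 FPKM with DS-5272. It stood at percentile 92.1 in vehicle-treated cells and kept 23.2% of its mean after treatment, the second lowest share of the 9 after Phgdh. Its log2 difference was -2.21 with a standard error of 0.40. Shmt1, the cytosolic form, measured 23.7, 22.3 and 21.0 FPKM with vehicle and 8.28, 9.35 and 2.36 FPKM with DS-5272. Treated replicate 3 was far below the other treated mice, at 10.6% of the vehicle mean against 37.1% and 41.8%. Its log2 difference was -1.77 with a standard error of 0.41.

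The mitochondrial form was the more abundant in every mouse. The ratio of Shmt2 to Shmt1 was 4.02, 4.26 and 4.09 with vehicle and 2.76, 3.42 and 3.91 with DS-5272, with Shmt1 summed over its 2 entries. With the larger Shmt1 entry alone the ratio was 4.19, 4.37 and 4.18 with vehicle and 3.12, 3.65 and 5.50 with DS-5272. Treated replicate 3 then lay above all vehicle mice, so the direction of this ratio depends on the second entry, which held 0.436 to 0.943 FPKM with vehicle and 0.591 to 0.972 FPKM with DS-5272. With 3 mice against 3 the smallest p that an exact permutation test can give is 0.1. Shmt2 (chr10:127517123-127522444) overlaps exons of Ndufa4l2 on the opposite strand, which was listed at 0 in all 6 samples. Shmt1 (chr11:60788104-60811718) overlaps Smcr8, at 15.8 ± 2.08 FPKM with vehicle and 17.8 ± 0.357 FPKM with DS-5272 (SD, n = 3).

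The Mthfd enzymes interconvert the folate-bound carbon units. Mthfd2, the mitochondrial dehydrogenase and cyclohydrolase, measured 23.6, 27.4 and 22.5 FPKM with vehicle and 10.9, 14.4 and 6.11 FPKM with DS-5272. Mthfd1l, the mitochondrial synthetase that releases formate, measured 37.6, 39.8 and 36.9 FPKM with vehicle and 12.0, 18.1 and 6.31 FPKM with DS-5272. Mthfd1, the cytosolic enzyme that carries all 3 activities, measured 30.4, 29.8 and 29.3 FPKM with vehicle and 14.4, 15.7 and 6.94 FPKM with DS-5272. In each of the 3 genes the groups were apart, and treated replicate 2 was highest and replicate 3 lowest. The log2 differences were -1.22 for Mthfd2, -1.68 for Mthfd1l and -1.28 for Mthfd1, with standard errors of 0.27, 0.32 and 0.27.

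The balance of mitochondrial and cytosolic transcripts was compared by ratio. The ratio of Mthfd1l to Mthfd1 was 1.24, 1.34 and 1.26 with vehicle and 0.838, 1.15 and 0.909 with DS-5272, with all treated ratios lower, also when only the larger Mthfd1 entry was used. The ratio of Mthfd2 to Mthfd1 was 0.775, 0.918 and 0.766 with vehicle and 0.756, 0.915 and 0.881 with DS-5272, which overlap. Mthfd1 was the steadiest member among vehicle mice, with a coefficient of variation of 1.84% against a median of 8.60% over all tested genes. A second Mthfd1 entry held 0.240 to 0.494 FPKM with vehicle and 0.541 to 1.11 FPKM with DS-5272. Mthfd2 lies at chr6:83305691-83325908, Mthfd1l at chr10:3973118-4167081 and Mthfd1 at chr12:76255298-76319803, where Gm47525 overlaps it on the opposite strand.

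Slc1a4, a carrier of neutral amino acids including serine and alanine, was the exception to the gap between the groups. It measured 1.07, 0.682 and 0.493 FPKM with vehicle and 0.500, 0.158 and 0.170 FPKM with DS-5272. Treated replicate 1 lay just above vehicle replicate 3, so the groups overlapped. Means were 0.749 ± 0.296 and 0.276 ± 0.194 FPKM (SD, n = 3). The treated mice thus kept 36.9% of the vehicle mean, a smaller share than for Psph, Mthfd1 or Mthfd2. The difference on the log2(FPKM + 1) scale was -0.45, and this scale understates changes at such low levels. With 15 to 182 estimated fragments per library Slc1a4 was too low for the filter. Slc1a4 lies at chr11:20302180-20332713 on the minus strand.

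In vehicle-treated cells the order of levels from the highest was Psat1, Shmt2, Mthfd1l, Mthfd1, Mthfd2, Shmt1, Phgdh, Psph and Slc1a4. Mthfd2 and Shmt1 did not differ beyond their spread, since the lowest Mthfd2 value of 22.5 FPKM lay below the highest Shmt1 value of 23.7 FPKM. All other neighbours in that order were separated in all 3 mice. After DS-5272 the order was Psat1, Shmt2, Mthfd1, Mthfd1l, Mthfd2, Shmt1, Psph, Phgdh and Slc1a4, and Psph exceeded Phgdh in each treated mouse. Across the treated mice the ranges of neighbours overlapped at every step other than that from Psph to Phgdh. Within each treated mouse, however, Psat1 exceeded Shmt2, Shmt2 exceeded Mthfd1, Mthfd1l exceeded Mthfd2 and Mthfd2 exceeded Shmt1. The order of Mthfd1 and Mthfd1l, of Shmt1 and Psph, and of Phgdh and Slc1a4 differed between treated mice. Summed over the 9 genes, the level was 368, 355 and 326 FPKM with vehicle and 118, 149 and 58.8 FPKM with DS-5272.

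Of the 8 members that passed the filter, 8 were called lower, against 22.0% of all tested genes, and 8 of the 9 did not overlap between groups, against 29.7%. Nothing is read from these counts, since this contrast chose the genes. The median log2 difference of the 8 was -1.65 beside 0.04 for all tested genes. Without vehicle replicate 2, Mthfd2 was no longer called and its log2 difference was -1.14.

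The treated mice were not alike. Replicate 2 was highest and replicate 3 lowest in 8 of the 9 genes, the exception being Slc1a4. The median log2 difference of the 8 members from the vehicle mean was -1.37, -1.09 and -2.35 in DS-5272 replicates 1, 2 and 3. The same order of the 3 mice was seen in 1201 of the 2451 genes called lower, or 49.0%, and in 13 of 13 proliferation genes. Without DS-5272 replicate 3 the members' median was -1.26, and without replicate 2 it was -1.93.

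**Figure D2:**
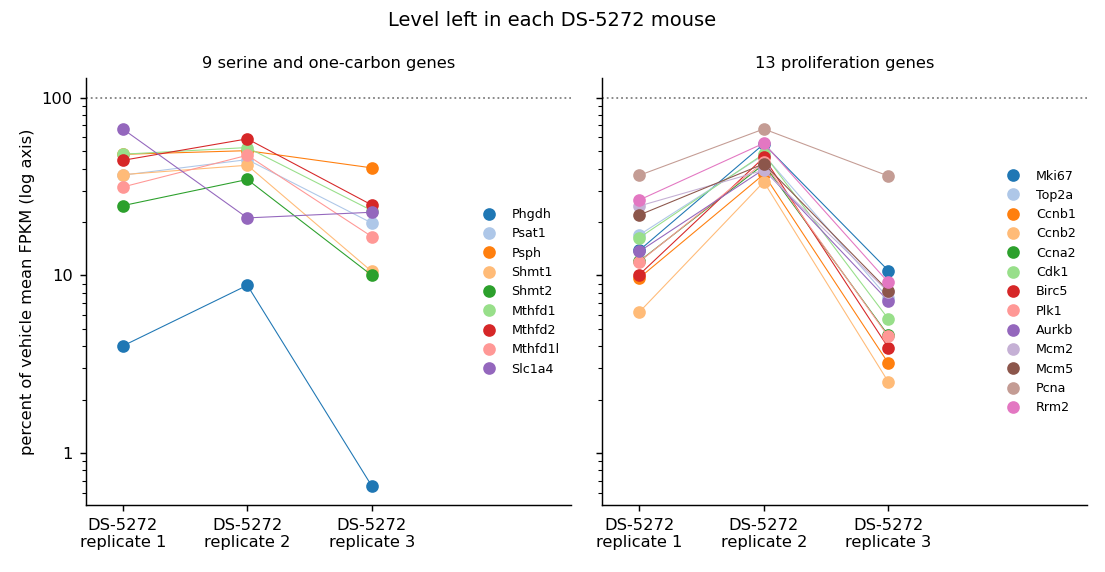
Level in each DS-5272 mouse as a percentage of the vehicle mean FPKM (log axis, dotted line at 100), for the 9 serine and one-carbon genes on the left and 13 proliferation genes on the right, with lines that join the values of 1 gene. Phgdh sits lowest on the left, at 4.03%, 8.80% and 0.656%, and replicate 2 kept the most in all genes but Slc1a4.

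Proliferation genes moved with the pathway. All 13 of the list were called lower with a median log2 change of -2.36, though 8 were called without vehicle replicate 1 and 7 without vehicle replicate 2. Mki67, a marker of cycling cells, measured 108, 106 and 102 FPKM with vehicle and 14.7, 58.3 and 11.3 FPKM with DS-5272. Its log2 change was -2.24 ± 0.55 (SE; limma, adjusted p = 0.017), and the adjusted p was 0.0504 without vehicle replicate 1 and 0.055 without vehicle replicate 2. Against the vehicle mean, the median proliferation gene differed by -2.66, -1.15 and -3.47 on the log2 scale in DS-5272 replicates 1, 2 and 3. Of 8 markers of myeloid progenitors tested, 5 (62.5%) fell, against 22.0% of all tested genes. Meis1 and Cd34 went the other way, by 0.24 and 0.18 on the log2 scale, and Myb changed by -0.27, none of them called. The sum of the list went from 4670 to 5380 FPKM with vehicle to 1720 to 2460 FPKM with DS-5272. Elane, Ctsg and Prtn3, with vehicle means of 1840, 1490 and 992 FPKM, made up most of that sum. The part of these shifts in the lower levels of the serine and one-carbon genes was not tested. Nor was the part of the shifts above in neutrophil, macrophage, erythroid, and NK and T cell markers.

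Outside the 9 genes, the rest of folate metabolism was tested as a list of 21 genes, of which 18 passed the filter. Among these, 8 (44.4%) fell and 3 (16.7%) rose, against 22.0% and 24.2% of all tested genes. The other 7 did not pass the threshold, and the median log2 change was -0.38. With the replicate number as a block 9 fell and 4 rose. Without vehicle replicate 2, 5 fell. Tyms, which makes thymidylate with a folate carbon, measured 52.5, 47.1 and 45.0 FPKM with vehicle and 15.8, 22.8 and 12.5 FPKM with DS-5272, a log2 change of -1.49 ± 0.21 (SE here and below for log2 changes, SD for FPKM means, n = 3; limma, adjusted p = 0.0036). Slc19a1, the reduced folate carrier, went from 14.4 ± 1.41 to 5.46 ± 1.95 FPKM (adjusted p = 0.0068). Treated replicate 3 was lowest in both genes. Others that fell were Gart and Atic of purine synthesis, Fpgs, which adds glutamates to folate, the mitochondrial folate carrier Slc25a32, and the mitochondrial serine carrier Sfxn1.

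Genes of folate metabolism that rose included Sfxn3 and Mthfs. Sfxn3, a relative of the serine carrier Sfxn1, went from 9.02 ± 0.115 to 16.5 ± 2.01 FPKM (adjusted p = 0.0036), while Sfxn1 went from 39.9 ± 2.51 to 21.7 ± 5.88 FPKM. Mthfs, which returns 5-formyltetrahydrofolate to use, rose by 0.70 on the log2 scale (adjusted p = 0.023), with adjusted p of 0.066, 0.058, 0.064 and 0.061 without vehicle replicates 1 and 2 and DS-5272 replicates 2 and 3. Mthfd2l, the close relative of Mthfd2, stood at 1.09 ± 0.236 FPKM with vehicle and 1.17 ± 0.419 FPKM with DS-5272 (SD, n = 3; limma, adjusted p = 0.87), far below Mthfd2 in each vehicle mouse.

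Of the methionine cycle, 7 of 13 genes passed the filter. Of these, 2 (28.6%) fell and 1 (14.3%) rose, against 22.0% and 24.2% of all tested genes. Ahcy, which clears the product of methylation reactions, measured 99.9, 106 and 94.5 FPKM with vehicle and 26.4, 39.6 and 15.8 FPKM with DS-5272 (log2 change -1.93 ± 0.30, adjusted p = 0.0045). Mtap, of methionine salvage, changed by -1.13 ± 0.24 (adjusted p = 0.010). Mat2b, a subunit of methionine adenosyltransferase, rose by 0.37 (adjusted p = 0.047), and this call was lost without any of the vehicle replicates 1, 2 and 3 (adjusted p = 0.11, 0.14 and 0.12) and without DS-5272 replicates 1 and 3 (0.095 and 0.097). In the glycine cleavage system 2 of 4 genes were tested. Gcsh, its lipoyl carrier, fell by 0.53 on the log2 scale (adjusted p = 0.022, and 0.065, 0.084 and 0.056 without vehicle replicates 1, 2 and 3).

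**Figure D3:**
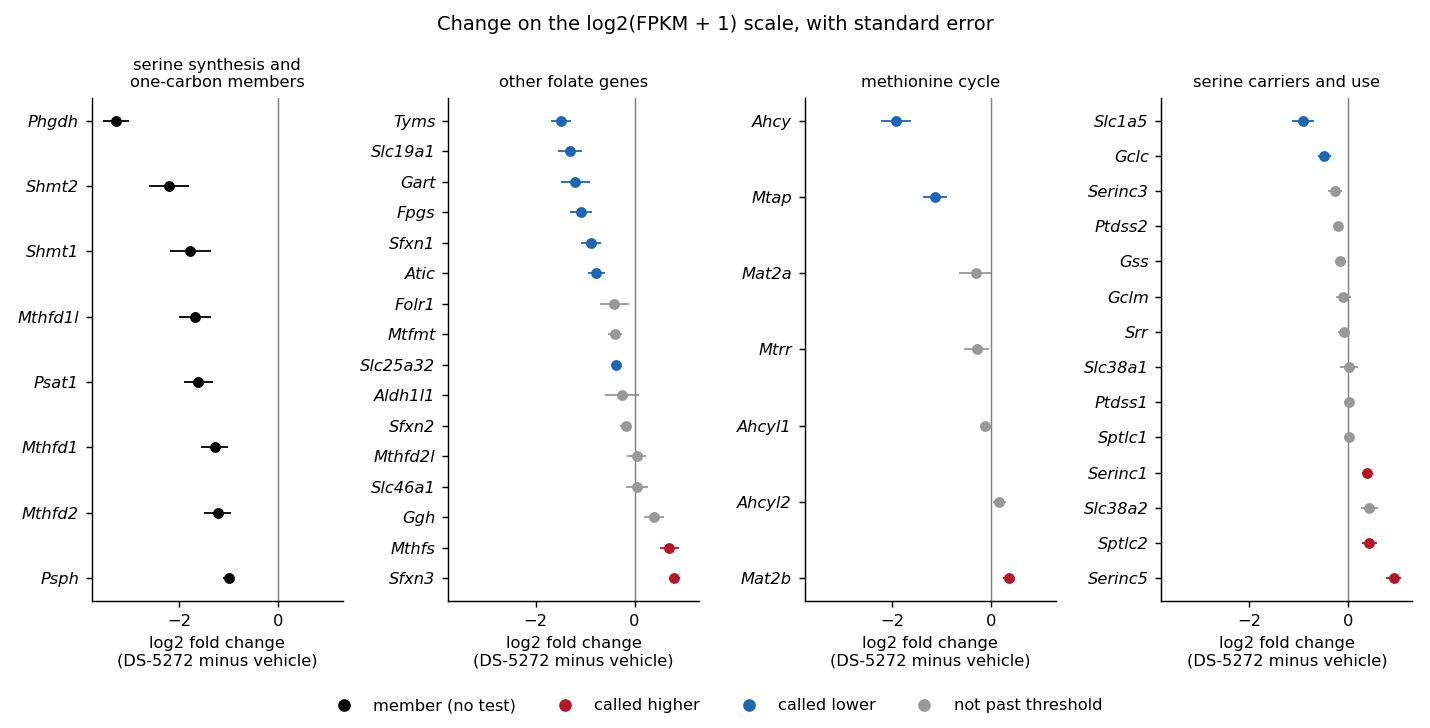
Log2 fold change (DS-5272 minus vehicle, on log2(FPKM + 1)) with its standard error for the 8 members above the filter and for other genes of folate metabolism, the methionine cycle and serine transport and use. Members, in black, carry no test and range from -3.28 to -0.99, while red and blue mark other genes called higher and lower.

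Of 20 genes that carry or use serine, 14 were tested, and 3 (21.4%) rose and 2 (14.3%) fell, against 24.2% and 22.0% of all tested genes. The other 9 did not pass the threshold, and the 14 had a median log2 change of -0.03. With the replicate block 4 rose. Serinc5, a membrane protein of the serine incorporator family, measured 7.44, 7.54 and 7.89 FPKM with vehicle and 15.9, 12.4 and 18.7 FPKM with DS-5272 (log2 change 0.93 ± 0.15, adjusted p = 0.0051). Slc1a5, a neutral amino acid carrier and relative of Slc1a4, went from 38.9 ± 1.58 to 21.1 ± 6.31 FPKM (adjusted p = 0.017, and 0.060 and 0.051 without vehicle replicates 2 and 3). Gclc, the first enzyme of glutathione synthesis, fell by 0.47 on the log2 scale (adjusted p = 0.027), with adjusted p of 0.087, 0.081 and 0.066 without vehicle replicates 1, 2 and 3 and 0.064 without DS-5272 replicate 2. The rises of Serinc1 (0.40, adjusted p = 0.019) and of Sptlc2, a subunit of serine palmitoyltransferase (0.44, adjusted p = 0.0497), were small. For Serinc1 the adjusted p was 0.056, 0.072 and 0.076 without vehicle replicates 1, 2 and 3, and for Sptlc2 it was 0.064 to 0.13 without any of the 6 libraries. When the libraries were scaled to a common total, a common upper quartile or the same quantiles, 1 gene of this list rose in place of 3.

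The glycolysis genes around the branch point to serine were tested as a list. Of 6 tested, 1 (16.7%) rose and 0 fell in limma, against 24.2% and 22.0% of all tested genes. Their median log2 change was 0.06. At an unadjusted p under 0.05, 0 of the 6 were lower. After scaling to a common total or the same quantiles 2 fell, and with a common upper quartile 1 did. Pkm, listed as Pkm2, encodes pyruvate kinase and measured 694, 811 and 757 FPKM with vehicle and 1120, 1310 and 1400 FPKM with DS-5272 (limma, log2 change 0.76 ± 0.14, adjusted p = 0.0073).

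ATF4 is the transcription factor of the amino acid response, and the serine synthesis genes are among its known targets. Its own transcript measured 107, 202 and 228 FPKM with vehicle and 98.8, 280 and 290 FPKM with DS-5272, which overlap (log2 change 0.23 ± 0.48, limma, adjusted p = 0.71, and 0.17 with the replicate block), and the sign of this change turned with a common total, with quantile normalization and without vehicle replicate 1 (-0.10) or DS-5272 replicates 2 (-0.01) or 3 (-0.03). Of 36 genes of the ATF4 list, 30 were tested, and 10 (33.3%) fell, 5 (16.7%) rose and 15 did not pass the threshold, with a median log2 change of -0.20, beside 22.0% and 24.2% of all tested genes. With the block 8 rose and 10 fell, and without vehicle replicates 1, 2 and 3 the number that fell was 6, 5 and 6. How the list differs from all genes or from the 8 members was not tested.

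Among ATF4-list genes that fell, Asns, asparagine synthetase, measured 41.8, 41.7 and 39.5 FPKM with vehicle and 27.0, 25.9 and 19.2 FPKM with DS-5272 (log2 change -0.76 ± 0.14, adjusted p = 0.0072). The amino acid carriers Slc7a1 (-1.40 ± 0.33, adjusted p = 0.014) and Slc7a5 (-0.95 ± 0.25, adjusted p = 0.022) and the tRNA synthetase Eprs (-0.79 ± 0.16, adjusted p = 0.0094) also fell, and Slc7a5 had adjusted p of 0.078 and 0.057 without vehicle replicates 2 and 3. In the other direction, Sesn2, a sestrin that p53 also induces, measured 7.79, 6.98 and 6.81 FPKM with vehicle and 20.3, 24.2 and 52.7 FPKM with DS-5272 (log2 change 1.91 ± 0.33, adjusted p = 0.0059). Slc7a11, the cystine carrier (1.17 ± 0.17, adjusted p = 0.0041), and the stress gene Nupr1 (1.06 ± 0.16, adjusted p = 0.0045) rose as well, but Slc7a11, at 0.377 ± 0.136 FPKM with vehicle and 2.11 ± 0.535 FPKM with DS-5272, passed the filter only through the treated group. Ddit3, the stress factor CHOP, was 7.22, 29.5 and 48.2 FPKM with vehicle and 13.7, 64.8 and 69.3 FPKM with DS-5272 (adjusted p = 0.44), and each treated mouse exceeded the vehicle mouse of its number, with an adjusted p of 0.0051 under the block. Trib3 was listed at 0.219 to 0.423 FPKM in all 6 samples and was not tested.

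**Figure D4:**
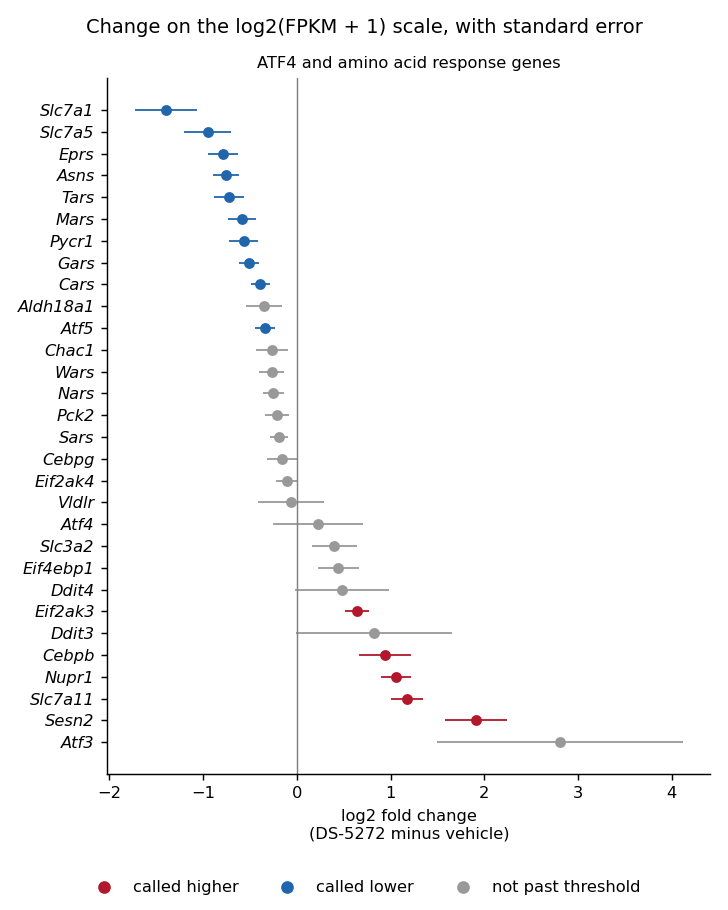
Log2 fold change (DS-5272 minus vehicle, on log2(FPKM + 1)) with its standard error for the 30 tested genes of the ATF4 list, coloured by the limma call. The 10 genes in blue fell and the 5 in red rose, with Slc7a1 and Sesn2 at the ends of the called genes.

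The genes of p53 and its antagonists were read beside the pathway. Cdkn1a, the p53 target that encodes p21, measured 14.8, 28.1 and 25.5 FPKM with vehicle and 32.3, 117 and 485 FPKM with DS-5272, and Mdm2 measured 27.1, 36.3 and 40.0 FPKM and 42.6, 78.8 and 210 FPKM. Both were higher in every treated mouse than in every vehicle mouse. They passed the threshold under the replicate block (limma, adjusted p = 0.014 and 0.015) and without DS-5272 replicate 1 (0.011 and 0.017), and not otherwise (0.061 and 0.073). DS-5272 replicate 3 thus held the highest Cdkn1a and Mdm2 values and the lowest values of 8 of the 9 serine and one-carbon genes. DS-5272 replicate 1 held the lowest Cdkn1a of the treated mice but not the highest level of any of these 8. Trp53, the p53 gene itself, changed by -0.91 ± 0.18 (limma, adjusted p = 0.0086). Myc, a driver of one-carbon genes in many cancers, went from 48.7 ± 2.56 to 22.2 ± 10.5 FPKM (SD, n = 3; limma, adjusted p = 0.031), and without vehicle replicates 1, 2 and 3 the adjusted p was 0.080, 0.078 and 0.082.

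Genes whose pattern was most like that of Phgdh were ranked by Pearson's r of log2(FPKM + 1) over the 6 samples, as a description. The first were Hspb6, a small heat shock protein (r = 0.9987), Prpf8, a core splicing factor (0.9985), the mitochondrial ribosomal protein gene Mrpl46 (0.9983), Polr2b, a subunit of RNA polymerase II (0.9983), and Coq7, of ubiquinone synthesis (0.9980). With 2 groups of 3 samples, r is set mainly by the gap between the groups, and 1301 genes had r over 0.95. Of the other 7 tested members, 4 were among them. Coq7 measured 26.7, 28.2 and 26.4 FPKM with vehicle and 8.39, 11.3 and 7.63 FPKM with DS-5272, and so kept a larger share of its level than Phgdh did in each treated mouse.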

How the data were processed

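The authors trimmed paired reads of strand-specific libraries with cutadapt 1.8.1, aligned them to GRCm38 with TopHat2 2.1.1 and computed gene FPKM with Cufflinks 2.2.1 (the submitters' processing notes), and the deposited FPKM table holds no counts. Whether counting used strand is not given in the sources used here. Of 26632 entries, 435 names on several lines were summed and 433 entries join several genes. Of 185 listed genes, 176 matched their symbol, 2 an older symbol, 4 lie in joined entries and 3 had no entry. Depth was estimated from FPKM steps of 716 low genes and 449 single-transcript genes.

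limma 3.58.1 (R 4.3.3, variance trend, two-sided) was run on log2(FPKM + 1), which understates changes of low genes, for genes averaging 1 FPKM or more, with Benjamini-Hochberg adjustment over 11130 genes. An exact permutation test of 3 against 3 cannot go below p = 0.1. Simulated data were used to test the fit. Tables and plots were made in Python 3.11.15 (pandas 2.3.3, numpy 2.4.6, matplotlib 3.10.9). Deviations from group means of same-numbered samples correlated at 0.66, 0.21 and 0.43. Unlike-numbered pairs reached 0.34 for vehicle replicate 2 with DS-5272 replicate 3 and 0.18 for vehicle replicate 3 with DS-5272 replicate 2. The remaining pairs lay between -0.58 and -0.24. These values set replicate 1 apart but hardly tell numbers 2 and 3 apart. The replicate number was used as a block only in an alternative fit, and no source names what same-numbered samples share. The members and lists were chosen with earlier results of these data known. Named genes were the members, up to 3 called genes per direction and list by fold change, a fixed set of regulators and markers, and the 5 genes most like Phgdh. Other folate, progenitor and overlapping genes were named after their values were seen. Values of 2 folate genes are not reported here, though the list counts hold them. Sequences came from RefSeq, and gene positions from GENCODE.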

Additional observations from a re-analysis of the deposited data

How the results depend on the processing

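Alternatives changed the pseudocount, the filter on low values, the scaling, the block, the variance trend, the fold threshold and the row used for repeated names, or left out 1 library. The fold threshold alters calls but no value, so the values counted next leave it out. The filters, the block and the variance trend also cannot move a gene's log2 difference. Among members, the row used can move only Shmt1 and Mthfd1. Such values are in the count of members and were the same by construction. Of 128 values of the 8 members, 126 moved by less than the replicate spread, and the others were Phgdh at -4.68 with a pseudocount of 0.1 and Psph at -1.22 with a common total. Of 573 values of 36 other named genes, 513 kept direction and side of the threshold, 50 lost the call, 5 gained it and 5 changed sign. The last 5 are all of Atf4, which passed the threshold under no setting, at -0.03 with a common total, -0.14 with quantile normalization, and -0.10, -0.01 and -0.03 without vehicle replicate 1 and DS-5272 replicates 2 and 3, within a range of -0.10 to 0.74 over the libraries left out. Scaling moved the median log2 change of all genes from 0.04 to -0.19 with a common total and to -0.08 with a common upper quartile, so that 1713 genes rose and 3555 fell, and 2233 rose and 3179 fell. With a common total, serine use genes numbered 1 higher and 4 lower, methionine genes 0 higher and glycolysis genes 2 lower. With a common upper quartile these were 1 serine use gene and 0 methionine genes higher and 1 glycolysis gene lower, and with quantile normalization 1, 0 and 2. Without the variance trend, 0 methionine genes rose. With a log2 change of at least 1 required, 978 genes rose and 621 fell, with folate 1 and 5, ATF4 3 and 1, serine use 0 and 0, and methionine and glycolysis 0 higher. Under that threshold 7 members were called, without Psph at -0.99. The replicate block, for which all genes numbered 3367 higher and 2771 lower, raised the ATF4 genes called higher to 8 and glycolysis genes to 2, and changed no member's call. Leaving out 1 library gave 1623 to 2934 genes higher and 1389 to 2432 lower, 7 to 8 members called, a members' median of -1.93 to -1.26, and proliferation 7 to 13 lower. Ranges of higher and lower calls were 2 to 4 and 5 to 10 for folate, 0 to 1 and 2 to 2 for methionine, 1 to 3 and 0 to 2 for serine use, 4 to 6 and 5 to 11 for ATF4, and 1 to 2 and 0 to 0 for glycolysis. The cause was not tested, beyond the fewer samples of these fits. Depth limits Phgdh in DS-5272 replicate 3, where about 4 fragments lie behind the value, and Slc1a4 throughout.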
